A study of Mus musculus with 4 samples.

Results

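The immediate early and heat shock genes Fos, Jun, Junb, Atf3, Egr1, Klf4, Ier2, Hspb1, Hspa1a and Hspa1b were followed across the developing mouse lower jaw and tongue. These 10 genes were chosen by name, with earlier results of these data known, out of 27246 genes with a symbol on the array, and 13 probes carried them. RNA came from 4 pooled tissues of ICR embryos, an outbred mouse stock, and each pool was hybridised with Cy3 to 1 single-colour Agilent array. MMA stands for the median mandibular arch of 12 embryos at E9.5. LLS stands for the lateral lingual swellings of 4 embryos, and LMA for the lateral mandibular arch of 4 embryos, both at E11.5. T is the median part of the tongue of 4 embryos at E14.5. Per the labels, dissection was done in cold salt solution, and the time until lysis is not given in the sources used here. The labels name no mutation, transgene or drug for any pool. The swellings on the floor of the arch give rise to most of the front of the tongue. There were no replicates, so no value has an SD between pools and no p-value was computed. Stage, tissue, litter and the handling of a pool cannot be told apart.

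Immediate early genes are switched on within minutes of a growth factor, a stretch or a stress, from transcription factors already present in the cell, and most of their messages are short-lived. Fos and Jun proteins pair to form AP-1, Atf3 belongs to the related ATF/CREB family, and Egr1 and Klf4 are zinc finger factors. Heat shock genes are switched on by heat shock factor, which binds alternating repeats of GAA and its reverse complement, and encode chaperones that hold or refold damaged proteins. Several of these genes also have steady roles in development, such as Klf4 in the differentiation of stratified epithelium and Hspb1 in keratinocytes and muscle.

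The promoters of 8 of the 10 genes were found in RefSeq (build GRCm38.p6, from 250 bases before to 50 bases after the annotated start). Egr1 and Ier2 were not among them. Of these windows, 4 are printed, because they show the shortest heat shock motif shared by heat shock genes and Jun, and the different letters in the Fos window. Capitals in the first 3 mark GAANNTTC, which is 2 facing units of the heat shock element and reads the same on both strands, its mirror order TTCNNGAA having been searched too. In the Fos window they mark TGACG, the short form of the cyclic AMP response element, and TATAAA.
Hspa1a (chr17:34972107-34972406, minus strand): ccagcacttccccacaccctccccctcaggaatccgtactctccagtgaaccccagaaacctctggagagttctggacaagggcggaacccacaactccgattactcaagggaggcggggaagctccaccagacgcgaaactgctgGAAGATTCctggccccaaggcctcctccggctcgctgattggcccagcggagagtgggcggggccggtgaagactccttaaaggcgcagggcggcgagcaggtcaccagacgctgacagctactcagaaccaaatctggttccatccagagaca
Hspb1 (chr5:135887669-135887968, plus strand): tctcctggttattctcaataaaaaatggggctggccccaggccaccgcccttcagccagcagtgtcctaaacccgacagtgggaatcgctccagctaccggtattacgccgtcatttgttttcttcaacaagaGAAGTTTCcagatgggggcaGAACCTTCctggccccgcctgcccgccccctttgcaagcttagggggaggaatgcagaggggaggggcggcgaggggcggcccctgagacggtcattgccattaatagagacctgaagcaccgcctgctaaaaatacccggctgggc
Jun (chr4:95052173-95052472, minus strand): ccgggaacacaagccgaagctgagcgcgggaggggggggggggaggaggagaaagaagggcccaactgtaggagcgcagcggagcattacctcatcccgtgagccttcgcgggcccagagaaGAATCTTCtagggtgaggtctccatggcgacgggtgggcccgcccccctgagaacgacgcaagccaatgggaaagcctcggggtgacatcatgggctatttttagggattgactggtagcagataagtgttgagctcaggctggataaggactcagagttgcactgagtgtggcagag
Fos (chr12:85473640-85473939, plus strand): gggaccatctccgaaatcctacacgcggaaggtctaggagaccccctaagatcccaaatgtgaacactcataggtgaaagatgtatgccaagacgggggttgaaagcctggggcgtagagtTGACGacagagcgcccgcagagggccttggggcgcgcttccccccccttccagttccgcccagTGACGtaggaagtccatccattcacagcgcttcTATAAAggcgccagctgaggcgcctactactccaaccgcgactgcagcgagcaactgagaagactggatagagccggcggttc

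The motif of 2 heat shock units was found in 4 of the 8 windows, against 15.1% of 32851 mouse promoter windows of the same length. It lay at -104 to -97 from the annotated start in Hspa1a and Hspa1b, at -117 to -110 and -97 to -90 in Hspb1, and at -128 to -121 in Jun. The longer form of 3 units, GAANNTTCNNGAA, was in 0 of the 8 windows and in 0.603% of all windows. TGACG was in 5 of 8 windows (Atf3, Klf4, Hspb1, Junb and Fos), against 20.8% of all, and in Fos it lay at -129 to -125 and at -66 to -62. The full palindrome TGACGTCA (1.79% of all windows), which contains TGACG, the AP-1 site TGAGTCA (5.2%) and the CArG box bound by serum response factor (1.63%) were each in 0 of the 8. TATAAA was in 2 of 8 windows, against 13.6% of all. CCAAT was in 5 of 8, against 37.4%, and the GC box GGGCGG in 7 of 8, against 35.7%. The windows of Hspa1a and Hspa1b are nearly identical, so they are not separate cases in the counts of the heat shock motif, CCAAT and GC box. All motifs were searched on both strands, and a match describes letters, not binding. Only exact spellings inside the windows were counted, so a count of 0 leaves out variant spellings and sites farther upstream.

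The inducible Hsp70 genes Hspa1a and Hspa1b are near copies of each other. Their windows were identical at 296 of 300 bases, and the Hspa1b window (chr17:34959189-34959488, minus strand) differs from that of Hspa1a by C44T, T47C, T249G and C276T, counted from 1 at the window's 5′ end, with the Hspa1a base first. None of the 4 lies in the heat shock motif. The 60-base probes that measured the pair share no run longer than 5 bases, so they read different sequence, although how far each also captures the other's message was not tested. Those probes lay on chromosome 17 of build mm9 at 35106766 to 35106825 (Hspa1a) and at 35093374 to 35093405 (Hspa1b, of which the header aligns 32 of 60 bases).

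Between 57.0% (MMA) and 62.9% (LMA) of the 59305 non-control spots of an array were well above background, and 0 were saturated. Values are processed signals in arbitrary units, and a difference is log2 signal minus the 75th percentile of its own array, the first tissue minus the second, so that 1 is 2-fold. Probes printed 10 times gave an SD of a single-spot log2 difference between 0.0775 and 0.0809, from 171 probes well above background. The error model of Feature Extraction, which is wider, gave log2 errors between 0.204 for bright members and 0.276 for the dimmest measured pair. The spike-in detection limit was 2.18 in T, which the software marked as out of its range, and lay between 1.33 and 1.41 in the other 3. All 10 skeletal muscle markers were well above background in T. The extraction text of the labels speaks of cerebellum, and of 8 cerebellar markers 3 were well above background in MMA and LMA and 2 in LLS and T. Pax2 and Zic1 were on all 4 arrays, at signals between 37.2 and 108.2, and En2 was in MMA and LMA, while Pax6, Atoh1, En1, Zic2 and Neurod1 were not on any array.

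Of the 10 genes, 8 were well above background on all 4 arrays. Fos and Egr1 were not in MMA, so their differences from MMA are bounds, taken against the lowest well-above-background signal of that array (20.2). Most of the genes had their highest scaled level in T. That held for 7 of 10, and for 31.5% of the 18726 genes well above background somewhere. The other 3, Junb, Atf3 and Ier2, were highest in MMA, as were 37.0% of those genes. For Junb this rests on a gap of 0.10 between MMA and T that turns with the scaling, as given with its values, and T would then be highest for 8 and MMA for 2. In such bulk pools, more cells of a type and more RNA per cell cannot be told apart.

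**Figure D1:**
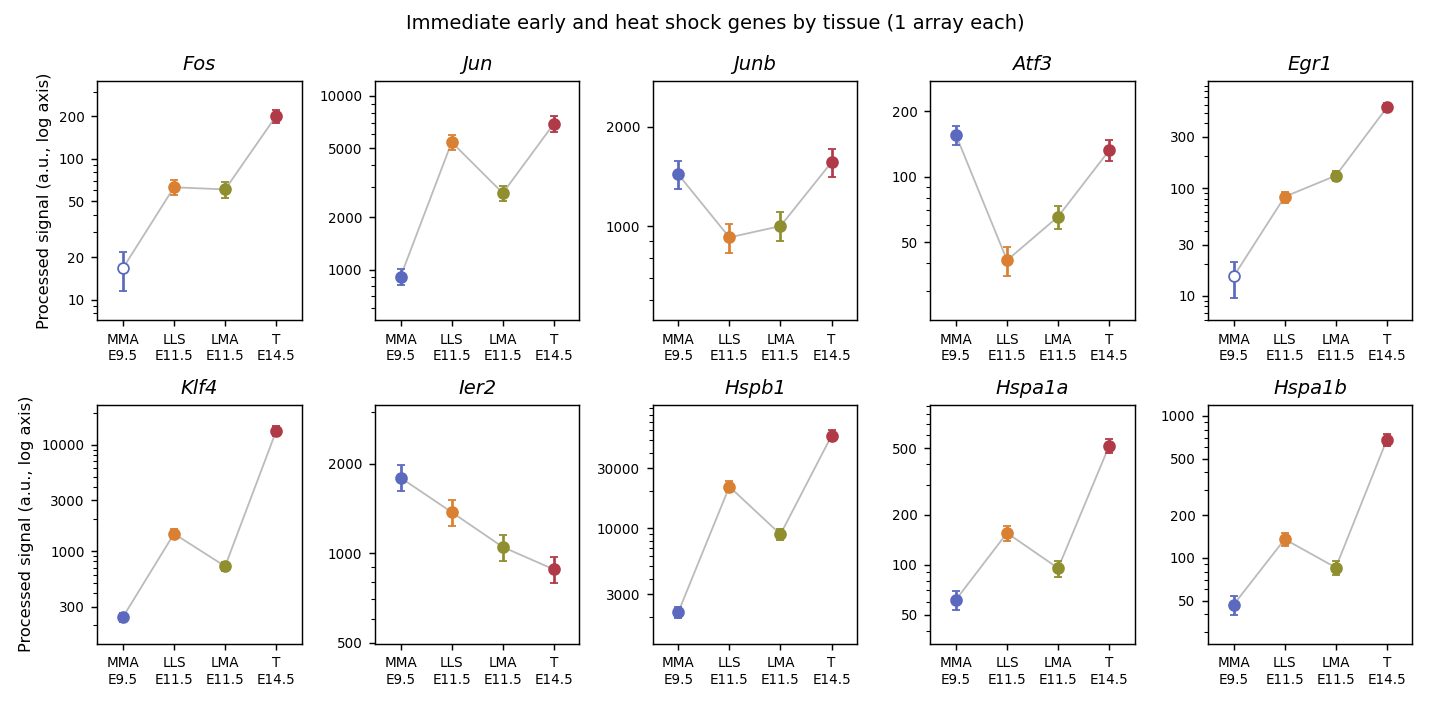
Processed signal (arbitrary units, log axis) of each of the 10 genes on the 4 arrays, in order of stage, with the error of Feature Extraction as bars and open points where a probe was not well above background. Klf4, Hspb1, Hspa1a, Hspa1b, Fos, Egr1 and Jun peak in T, as does Junb on this unscaled axis (1563, against 1436 in MMA). Ier2 is highest in MMA at 1797 and Atf3 is lowest in LLS at 41.3.

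In T against LLS, the swellings that precede the tongue, 7 of 10 genes were higher and 0 were lower by 2-fold or more. Over all 17758 genes compared, 13.7% were that much higher and 6.03% lower. Against LMA, 8 of 10 were higher and 0 lower (15.0% and 7.27% of 18306 genes). Against MMA, 7 were higher and 1 lower (18.7% and 13.8% of 17656). The medians over the 10 genes were 1.57, 1.97 and 2.98 in these 3 comparisons, while the medians over all genes were -0.07, -0.04 and -0.10. These comparisons share the T array and are not independent of each other, and the members were chosen with earlier results of these data known. With normexp background correction (offset 50), Fos (0.94) and Atf3 (0.75) fell under 2-fold against LLS, and Atf3 (0.60) against LMA. All genes then gave 8.14% higher and 3.41% lower against LLS, and 9.9% and 4.45% against LMA.

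The E11.5 tissues were each compared with MMA. LLS against MMA had 7 genes higher and 1 lower (10% and 6.02% of 17122 genes), with a median of 1.47. LMA against MMA had 5 higher and 2 lower (10.8% and 7.92% of 17752), with a median of 0.96. Normexp background correction adds an offset of 50 to each signal, which narrows the log2 differences of dim probes by arithmetic. With it, 3 members were higher in each of these comparisons, and 0 were lower in LMA against MMA. All genes then gave 5.72% higher in LLS against MMA, and 6.33% higher and 4.33% lower in LMA against MMA. Between the 2 tissues of the same stage, LLS against LMA, 3 were higher and 0 lower (4.22% and 3.40% of 17751), with a median of 0.68. Those 3 were Hspb1, Klf4 and Jun, the same 3 that differed most in LLS against MMA among genes measured in both.

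The scaling between arrays moved both the split over all genes and some of the members' counts. With each array centred on its median, 15.1% of genes were higher and 21.9% lower in T against MMA, 11.4% and 9.49% in T against LLS, and 8.52% and 11.8% in LMA against MMA, while the members' counts in those comparisons were the same as above. With cyclic loess, 22.6% and 8.2% were higher and lower in T against MMA, with 7 and 0 of the members. The members' count in LMA against MMA was 5 and 1 with cyclic loess and with quantile normalization. All genes there gave 11.6% and 6.76% with cyclic loess, and 10.3% and 7.41% with quantile normalization. The median over all genes in T against MMA was -0.37 with median centring and 0.18 with cyclic loess, so a difference of that size for a single gene has no settled direction.

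**Figure D2:**
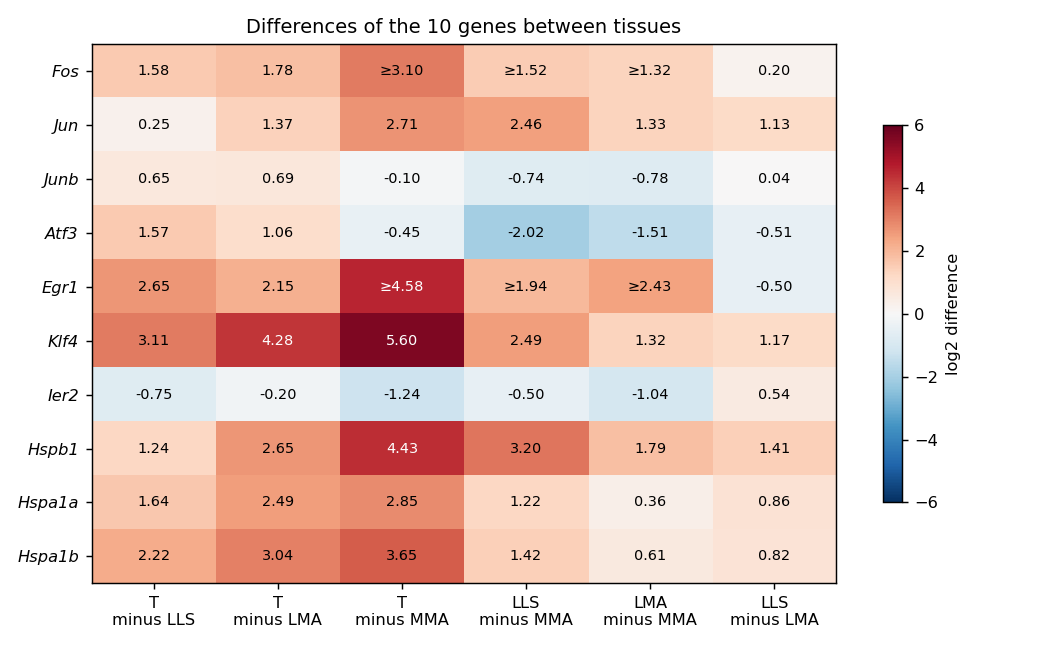
Log2 difference (colour and number) of each of the 10 genes, down the page, in the 6 comparisons, across the page, with the first-named tissue minus the second and ≥ marking a lower bound. Klf4 has the highest value, 5.60 in T minus MMA, and Ier2 has negative values in every column except LLS minus LMA (0.54).

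Hspb1 encodes the small heat shock protein known in the mouse as Hsp25, which holds unfolding proteins and binds actin. Its signal was 2166 in MMA, 21467 in LLS, 8988 in LMA and then 54477 in T. Every tissue of a later stage was above MMA, and at E11.5 LLS was above LMA. T was 21.6-fold above MMA (log2 difference 4.43), 6.26-fold above LMA (2.65) and 2.36-fold above LLS (1.24), each with an error of 0.204. LLS was 9.17-fold above MMA (3.20) and 2.66-fold above LMA (1.41). All gaps in its order, T over LLS over LMA over MMA, were wider than that error. The probe lay on chromosome 5 at 136365366 to 136365425 (mm9).

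Hspa1a and Hspa1b encode the stress-inducible Hsp70, and both were dim before E14.5. Hspa1a read 61.6 in MMA, 155.0 in LLS, 95.2 in LMA and then 518.1 in T. Hspa1b had 46.8 in MMA, 135.4 in LLS, 85.5 in LMA and then 681.1 in T. Both kept the order T, LLS, LMA, MMA, with T clear of the rest. In T, Hspa1a was 3.11-fold above LLS (1.64, error 0.21) and 7.23-fold above MMA (2.85), and Hspa1b was 4.67-fold above LLS (2.22, error 0.21) and 12.5-fold above MMA (3.65). The step from LLS to LMA was 0.86 for Hspa1a and 0.82 for Hspa1b. LMA against MMA differed by 0.36 for Hspa1a (error 0.25) and by 0.61 for Hspa1b (error 0.27), under 2-fold. With normexp background correction their excess in LLS over MMA was 0.70 each, against 1.22 and 1.42 here, and so no longer 2-fold.

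Among the AP-1 genes, Jun and Fos were higher in T than in MMA and Junb was not. Jun, a core AP-1 subunit, read 910.3 in MMA, 5408 in LLS, 2753 in LMA and then 6910 in T. T and LLS were the high pair, apart by 0.25 with an error of 0.204, and this gap came to 0.06 with median centring and 0.46 with cyclic loess. T was 6.53-fold above MMA (2.71) and LLS was 5.50-fold above MMA (2.46). LLS was also 2.18-fold above LMA (1.13). The Jun probe lay on chromosome 4 at 94716928 to 94716987 (mm9).

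Fos, the partner of Jun, was dim throughout. Its signal was 16.7 in MMA, where the probe was not well above background, 62.7 in LLS, 60.6 in LMA and then 201.5 in T. T stood alone at the top, and LLS and LMA differed by 0.20 with an error of 0.26. T was 2.98-fold above LLS (1.58, error 0.24), 3.44-fold above LMA (1.78) and at least 8.58-fold above MMA (3.10). LLS and LMA were at least 2.87-fold and 2.50-fold above MMA. With normexp the values were 0.94 in T minus LLS, 0.48 in LLS minus MMA and 0.32 in LMA minus MMA, all below the 2-fold limit, and 1.42 in T minus MMA. The Fos probe lay on chromosome 12 at 86818118 to 86818177 (mm9).

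Junb, an AP-1 subunit that often opposes Jun, varied least of the 10 genes, over a log2 range of 0.78. Its signal was 1436 in MMA, 925.8 in LLS, 1002 in LMA and then 1563 in T. The first and last stages were the high pair and the E11.5 tissues the low pair. T was 0.65 above LLS and 0.69 above LMA, with errors of 0.204, and neither reached 2-fold. T minus MMA was -0.10 and turned to 0.04 with quantile normalization and to 0.23 with cyclic loess, so its direction is not settled. Of the 3 Junb probes, the other 2 were not well above background on any array. The probe used lay on chromosome 8 at 87500843 to 87500902 (mm9).

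Atf3, a stress-induced repressor of the ATF/CREB family, had the opposite course from Hspb1 at E11.5. Its signal was 155.6 in MMA, 41.3 in LLS, 65.6 in LMA and then 132.2 in T. MMA and T were high and the E11.5 tissues low, with LLS the lowest. LLS was 4.07-fold below MMA (-2.02, error 0.26) and LMA 2.85-fold below MMA (-1.51). T was 2.97-fold above LLS (1.57) and 2.08-fold above LMA (1.06), and 0.45 below MMA (error 0.22). With normexp LMA minus MMA came to -0.95, under 2-fold. The excess of T was also under 2-fold with normexp, at 0.75 over LLS and 0.60 over LMA, and over LMA also with median centring (0.97) and quantile normalization (0.98). Its probe lay on chromosome 1 at 192994547 to 192994606 (mm9).

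Egr1, a zinc finger factor induced by growth factors and nerve activity, was lowest in MMA and highest in T. Its signal was 15.2 in MMA, not well above background, 83.5 in LLS, 130.9 in LMA and then 562.9 in T. Unlike the other genes that peaked in T, Egr1 was lower in LLS than in LMA, by 0.50 with an error of 0.23. T was 6.27-fold above LLS (2.65, error 0.22), 4.44-fold above LMA (2.15) and at least 24.0-fold above MMA (4.58). LLS and LMA were at least 3.82-fold (1.94) and 5.39-fold (2.43) above MMA. With normexp these came to 0.66 and 0.86, under 2-fold, and T minus MMA to 2.58.

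Klf4, which drives the barrier programme of stratified epithelia, had the widest range of the 10 genes. Its signal was 239.3 in MMA, 1456 in LLS, 719.0 in LMA and then 13537 in T. T was far above the rest, and LLS was above LMA. T was 48.6-fold above MMA (5.60), 19.5-fold above LMA (4.28) and 8.64-fold above LLS (3.11). LLS was 5.63-fold above MMA (2.49) and 2.25-fold above LMA (1.17), and LMA was 2.50-fold above MMA (1.32). Every one of these differences was at least 2-fold with normexp too. Its probe lay on chromosome 4 at 55540833 to 55540892 (mm9).

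Ier2, a nuclear protein of the early growth factor response, had its lowest level in T, though by a gap from LMA no wider than the error. Its signal was 1797 in MMA, 1376 in LLS, 1050 in LMA and then 883.3 in T. T was 2.37-fold below MMA (-1.24) and LMA 2.05-fold below MMA (-1.04), while T minus LMA was -0.20, with an error of 0.204. With the median over both probes T minus LMA was 0.06, but the other probe was at the floor in T, so this gives no direction. With cyclic loess T minus MMA was -0.92, and LMA minus MMA lay at -0.89 with cyclic loess and -0.93 with quantile normalization, all under 2-fold. The other Ier2 probe had 96.1 in MMA and 22.1 in LMA, and was not well above background in LLS (17.5) and T (10.8). The probe used lay on chromosome 8 at 87185211 to 87185245 (mm9, 35 of 60 bases aligned by the header).

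Of 32 further immediate early genes, 29 could be compared in T against LLS, and 10 were higher and 1 lower by 2-fold or more (median 0.66), where all genes gave 13.7% and 6.03%. Against LMA it was 6 and 3 of 28 (median 0.39), where all genes gave 15.0% and 7.27%. Against MMA it was 9 and 2 of 28 (median 0.56), where all genes gave 18.7% and 13.8%. Fosl2, the Fos relative Fra-2, stood out with T minus LLS at 2.92, T minus LMA at 3.84 and T minus MMA at 5.25, reading 66.5 in MMA, 361.7 in LLS, 211.6 in LMA and then 2939 in T. Egr2, a relative of Egr1 known from Schwann cells, was 2.60 above LLS (error 0.34) and 2.59 above LMA (error 0.30), and at least 2.82 above MMA. It was dim before E14.5, at 25.5 in LLS and 28.4 in LMA, against 166.0 in T. The antiproliferative gene Btg2 (1.59, 1.68 and 2.81) and Ier3, an early gene of cell survival (1.52, 1.89 and 1.66), were at least 2-fold higher in T in all 3 comparisons, listed in the order LLS, LMA, MMA. Ier3 too was dim before E14.5, reading 24.9 in MMA, 29.5 in LLS, 25.5 in LMA and then 91.1 in T. Its errors were 0.31, 0.33 and 0.35 in the same order of comparisons.

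Others of this list were higher in T against some tissues only. Klf2, a zinc finger factor of endothelium, was 1.95 above LLS and 2.51 above MMA but 0.97 above LMA, and the stress gene Gadd45b was 2.58 above LLS, 2.88 above MMA and 0.83 above LMA. Jund, an AP-1 subunit of quiescent cells, was 1.84 above MMA, with 0.21 above LLS and 0.01 above LMA. Dusp5, a nuclear phosphatase of ERK, ran the other way, at -1.17 against LLS, -1.55 against LMA and -3.72 against MMA. The widely used early genes Dusp1 (0.17, 0.33 and 0.43 against LLS, LMA and MMA) and Nr4a2 (-0.05, -0.27 and -0.11) stayed within 2-fold. Fosl1, Egr3 and Egr4 were not well above background on any array, so nothing was measured for them.

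The further immediate early genes were mixed at the earlier stages. In LLS against MMA 4 were higher and 4 lower of 29 (median 0.14), where all genes gave 10% and 6.02%. In LMA against MMA it was 6 and 4 of 28 (median 0.26), where all genes gave 10.8% and 7.92%. In LLS against LMA 0 were higher and 3 lower of 29 (median -0.22), where all genes gave 4.22% and 3.40%. The 3 were Gadd45b at -1.75, the matrix protein gene Cyr61 at -1.45 and the kinase gene Sgk1 at -1.17. Klf4 and Jun, by contrast, were 1.17 and 1.13 higher in LLS.

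**Figure D3:**
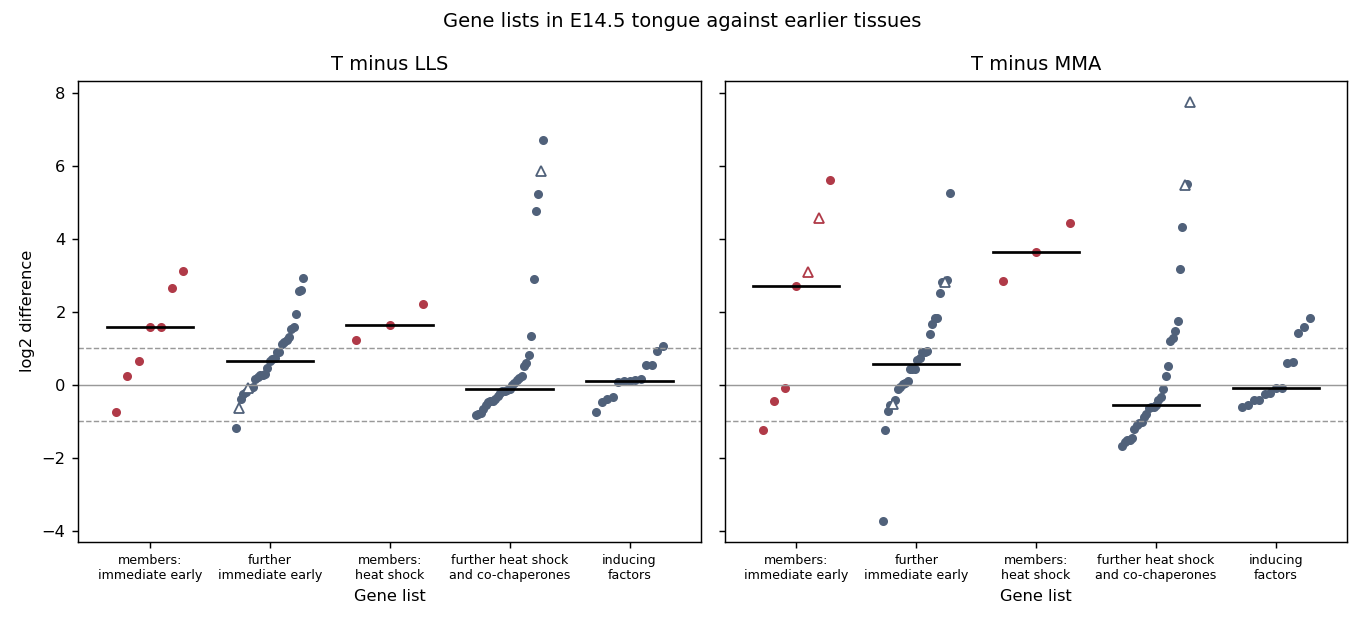
Log2 differences of each gene (points) in T minus LLS, left, and T minus MMA, right, by gene list, with the list's median as a black line, the 2-fold limits dashed and open triangles for bounds, which have no direction where they lie within the limits. The 3 heat shock members lie above the upper limit in both panels, while the median of the further heat shock genes is -0.12 against LLS and -0.55 against MMA.

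The other heat shock genes went both ways. Of 30 further heat shock genes and co-chaperones, 29 could be compared in T against MMA, and 9 were higher and 9 lower by 2-fold or more, where all genes gave 18.7% and 13.8%. The higher ones included small heat shock proteins known from muscle, with Hspb3 at least 7.75 above MMA, Hspb2 5.51, Hspb7 at least 5.47 and Cryab, alpha-B crystallin, 4.33. Hspb2 read 198.8 in MMA, 262.7 in LLS, 406.3 in LMA and then 10526 in T. Cryab had 557.8 in MMA, 443.2 in LLS, 449.5 in LMA and then 13053 in T. Both stayed within 2-fold of MMA at E11.5 and were high in T alone, whereas Hspb1 was already 9.17-fold above MMA in LLS. The Hspb3 probe was not well above background in MMA, but read 45.0 in LLS, 161.0 in LMA and then 5061 in T.

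Hspa4l, an Hsp110 relative that recharges Hsp70, was 3.18 above MMA in T, the Hsp70 co-chaperone Bag3 was 1.76 above, and Hspb8, its partner, 1.46 above. The Hsp40 genes Dnajb5 (1.29) and Dnajb4 (1.20) completed the 9 higher genes, while the small heat shock gene Hspb6 was at 0.51. Hspb8 also differed between the E11.5 tissues, with LLS 2.67 above LMA. The 9 lower genes had differences between -1.69 for Hspd1, the mitochondrial chaperonin, and -1.01 for Hsp90aa1, the stress-inducible cytosolic Hsp90. Hsph1 (-1.58), Stip1 (-1.52), Fkbp4 (-1.50), Hspa4 (-1.46), Hspa8 (-1.22), Hsp90ab1 (-1.11) and Hspa14 (-1.05) lay between them. Hspa8, the constitutive Hsp70, thus ran opposite to Hspa1a and Hspa1b in this comparison. Dnajb1, an Hsp40 gene that heat shock factor also drives, was at -0.13, and Hspa5, the chaperone of the endoplasmic reticulum, at -0.35. Other widely expressed chaperone genes, Hspa9 (-0.62), Hsp90b1 (-0.55), Hspe1 (-0.63) and Dnaja1 (-0.62), also stayed within 2-fold. The median over all genes in T minus MMA ranged from -0.37 to 0.18 with the scaling, and the genes near -1 lie within that range of the 2-fold limit.

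Against LLS, 6 of 29 further heat shock genes were higher in T and 0 lower (median -0.12), where all genes gave 13.7% and 6.03%, and against LMA 7 and 0 of 29 (median 0.04), where all genes gave 15.0% and 7.27%. The 9 genes lower than in MMA were thus within 2-fold of both E11.5 tissues. In LLS against MMA 1 was higher and 2 lower of 28 (median -0.44), where all genes gave 10% and 6.02%. In LMA against MMA it was 2 and 3 of 28 (median -0.60), where all genes gave 10.8% and 7.92%. In LLS against LMA it was 1 and 1 of 28 (median 0.05), where all genes gave 4.22% and 3.40%. Hspa1l, the third gene of the Hspa1 family, was not well above background on any array.

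**Figure D4:**
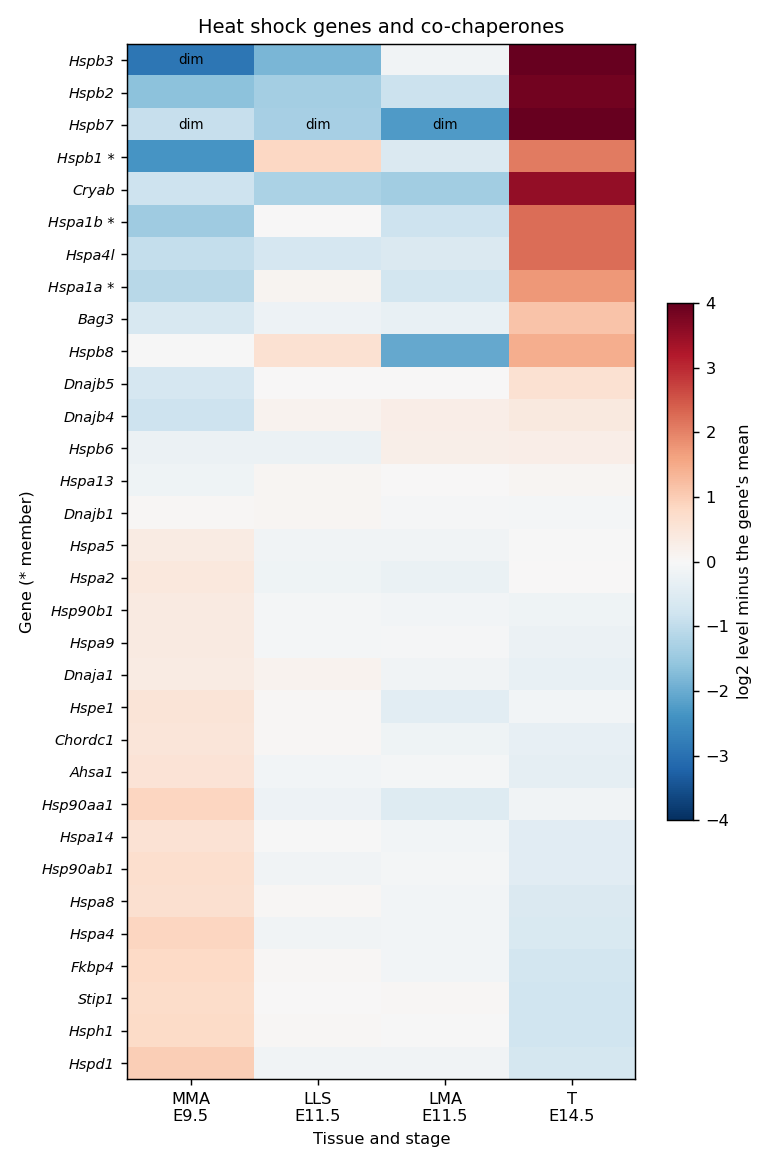
Log2 level of each heat shock gene and co-chaperone minus its own mean over the 4 tissues (colour, limited to 4 either way). Tissues run across in order of stage and genes down the page by T minus MMA, with an asterisk for the 3 members. The word "dim" marks a probe not well above background, shown at its level after the floor was applied. Hspb2, Hspb7 and Cryab are high in T alone, and Hspb3 is highest in T with LMA next. Hspb1 is also high in LLS, and genes at the foot, such as Hspd1 and Hsph1, are highest in MMA.

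The factors known to switch these genes on were compared next. Of 14 inducing transcription factors, 13 could be compared, and in T against MMA 3 were higher and 0 lower by 2-fold or more (median -0.10), where all genes gave 18.7% and 13.8%. The 3 were Crem of the CREB family (1.83), Elk4, a partner of serum response factor (1.58), and Mkl1, its actin-regulated co-activator (1.41). Srf itself was at 0.64, Creb1 at -0.08, and the heat shock factors Hsf1 at -0.61 and Hsf2 at -0.25. Against LLS only Elk4 passed 2-fold (1.06), and against LMA Elk4 was higher (1.12) and Elk3, another partner of serum response factor, lower (-1.23). Message levels of these factors do not measure their activity, which is largely set on the protein.

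Among 13 other Krüppel-like factors, 12 could be compared in T against MMA, and 4 were higher and 2 lower (median 0.70), where all genes gave 18.7% and 13.8%. Klf14 was 4.14 above MMA, Klf9, a glucocorticoid-responsive factor, 3.53, Klf5, an epithelial factor, 3.40, and Klf13 1.62. Klf1, the erythroid factor, was at -4.47 and Klf15 at -1.23. In LLS against LMA, Klf5 (2.32) and Klf14 (1.75) were higher, as Klf4 was (1.17).

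Markers of other cell types moved between the same tissues. The 12 stratified epithelium markers summed, in multiples of the array's 75th percentile, to 36.0 in MMA, 104.3 in LLS, 28.2 in LMA and then 765.6 in T. Of them 10 were at least 2-fold higher in T than in MMA, 9 of 12 in T than in LLS, and 8 of 12 in LLS than in LMA. All genes gave 18.7%, 13.7% and 4.22%. The brightest probes weigh most in the T sum, at 91330 for Krt15, 86802 for Krt14 and 85625 for Krt5. Trp63 stayed within 2-fold in T against LLS (-0.25), LMA (-0.02) and MMA (0.23), as did Epcam against MMA (0.38). Krt5 (0.33), Krt14 (0.50) and Trp63 (0.23) were within 2-fold in LLS minus LMA. The 10 muscle markers summed to 1.39 in MMA, 7.66 in LLS, 24.1 in LMA and then 516.6 in T. All 10 muscle markers were at least 2-fold higher in T than in LLS, with 3 of these as bounds, where all genes gave 13.7%. In LLS against LMA 0 of 8 were higher and 5 lower, where all genes gave 4.22% and 3.40%.

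Pharyngeal endoderm markers summed to 3.39 in MMA, 14.1 in LLS, 0.45 in LMA and then 29.1 in T, with 5, 4, 3 and 4 of 6 above background and Nkx2-1 on no array. In LLS against LMA 3 of the 4 compared were at least 2-fold higher, among them Foxa1 (5.83) and Foxa2 (at least 7.80), where all genes gave 4.22%. Both the epithelial and the endodermal sums were thus higher in LLS than in LMA, as Klf4, Hspb1, Hspa1a, Hspa1b and Jun were, and the muscle sum was lower. In LMA against MMA, 2 of 11 epithelial markers were at least 2-fold higher and 3 lower. For the endodermal markers it was 0 and 4 of 5, where all genes gave 10.8% and 7.92%. Klf4 (1.32), Hspb1 (1.79) and Jun (1.33) were higher in that comparison, while Hspa1a (0.36) and Hspa1b (0.61) stayed within 2-fold. Krt4 and Krt13 were not well above background in MMA, nor Krt4 in LLS or Krt13 in LMA, and Ckm and Myf5 were not in MMA, LLS and LMA. Macrophage markers, 4 of 8 above background in MMA and 8 of 8 elsewhere, summed to 1.99 in MMA, 5.42 in LLS, 6.37 in LMA and then 13.7 in T. Schwann cell markers summed to 2.58, 4.08, 4.02 and 11.8 in the same order, and neuron markers to 3.77, 5.63, 5.59 and 12.7. Endothelial markers summed to 17.8, 10.4, 21.1 and 8.13, lowest in T, and primitive erythroid markers to 1109, 904.6, 825.8 and 91.4. The part of any of these cell types in the members' differences was not tested.

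Likeness of course was measured as the root mean square difference between log2 profiles over the 4 tissues, each centred on its mean, among 14821 genes well above background on all arrays. For Klf4 the nearest genes were Fosl2 (0.17), Hs3st6 (0.21) and Ntn1 (0.24). For Hspb1 they were Efemp1 (0.21), Ednrb (0.21) and Sult5a1 (0.24), and for Jun they were Eps8 (0.07), Ppp1r3d (0.16) and Entpd3 (0.18). Hspa1a lay nearest to Slc36a1 (0.07), Tor3a (0.09) and Lgi1 (0.10), and Hspa1b to Col22a1 (0.10), Creb3l1 (0.14) and Nrbp2 (0.14).

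The genes highest in MMA had other neighbours. Atf3 lay nearest to Stambpl1 (0.10), Slc16a6 (0.19) and Rbp4 (0.19), Junb to D1Ertd622e (0.01), Lactb (0.04) and Nfs1 (0.04), and Ier2 to 2810408I11Rik (0.02), Rpph1 (0.04) and 2300005B03Rik (0.05). With 4 tissues, many genes share a course by arithmetic alone, most of all for genes that vary little. Among the members, Hspa1a and Hspa1b were the closest pair (0.29), yet 59 other genes lay closer to Hspa1a than Hspa1b did. Klf4 and Hspa1b were 0.70 apart, with 32 genes closer to Klf4, and Klf4 and Hspb1 were 0.72 apart, with 35 closer.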

How the data were processed

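Total RNA from 4 pooled embryonic tissues was measured, 1 array each, on 1 slide. Per the labels' protocols it was isolated with TRIzol and a Promega kit. The scanner files, as deposited, hold intensity values, and the processed signals in them are those that the authors made with Agilent Feature Extraction, version 10.7.1.1 per the file headers (the submitters' processing notes list 9.5.1.1), with background subtracted and no scaling between arrays. The deposited value table also holds intensity, on a linear scale, with a between-array normalization that is not given in the sources used here.

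Processed signals were put on the log2 scale, and each array's 75th percentile over its non-control probes was subtracted (422 in MMA, 456 in LLS, 507 in LMA, 491 in T). Spots flagged as outliers were left out and repeated spots averaged. A value not well above background was raised to the lowest well-above-background signal of its array where it lay below that signal (20.2, 16.7, 9.34 and 26.7 in the same order). Where it lay above that signal, it kept its own value. A difference with either kind of value is a bound. A gene was represented by the probe with the highest mean signal and compared where 1 or both of the tissues had it well above background. Genes were counted by size, at least 2-fold, without a test, since each tissue has 1 array, and that number limits the precision. All 56601 probes entered the scaling, and symbols and mm9 positions are those of the files.

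The counting step was tested on simulated data. The members and all lists were chosen with earlier results of these data known. Named genes are the 10 members, any gene of the lists of further immediate early genes, heat shock genes, inducing factors and Krüppel-like factors, and the 3 genes closest in course to each member measured on all arrays. Some genes of the cell type marker lists are also named, chosen singly. Alternatives were normexp background correction (offset 50, limma 3.58.1 in R 4.3.3), median centring, quantile and cyclic loess normalization, no floor, the median over a gene's probes, and the deposited value table. Probe sequences and the position of Egr1 are not reported here.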

Additional observations from a re-analysis of the deposited data

How the results depend on the processing

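Across 7 alternatives, 76 counts of members at least 2-fold higher or lower stayed within 1.5 times the value reported and 8 did not. With normexp background correction, 3 members were higher in LLS against MMA (7 reported), 3 were higher in LMA against MMA (5 reported) and 0 were lower (2 reported). All genes with normexp gave 5.72% higher in LLS against MMA, and 6.33% higher and 4.33% lower in LMA against MMA. In LMA against MMA 1 was lower with quantile normalization, with cyclic loess and in the deposited value table (7.41%, 6.76% and 7.41% of all genes). With cyclic loess 0 were lower in T against MMA (1 reported), where all genes gave 8.2%. With the median over a gene's probes 2 were lower in LLS against MMA (1 reported), with Ier2 at -1.53, where all genes gave 5.5%. Of 60 differences of single members, 41 were at least 2-fold, and 30 of those 41 were so with normexp, 40 with median centring, 39 with quantile normalization, 39 with cyclic loess, 39 in the deposited table, and 41 both without the floor and with the median over probes. Direction changed for Junb in T against MMA, at 0.04 with quantile normalization and in the deposited table, and 0.23 with cyclic loess. With the median over probes Junb was at 0.18, but its other 2 probes were not well above background. That value is a difference between array floors and measures no Junb signal. Ier2 in T against LMA was at 0.06 with the median over probes. Its other probe was at the floor in T, so that value gives no direction. The members that lost 2-fold with normexp were Fos, Egr1, Atf3, Hspa1a, Hspa1b and Ier2. Its offset of 50 narrows the log2 differences of dim probes by arithmetic, so for such probes this loss is no separate check. How much of each change came from the offset was not tested. No paired analysis was possible because each tissue has 1 array. Signal over background limits what can be read from Fos, Atf3, Egr1 and the Hspa1 pair before E14.5, and no difference has a replicate check.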
